A study of Mus musculus with 9 samples.

Results

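The integrated stress response and serine synthesis were followed through 10 genes: Trib3, Asns, Ddit3, Chac1, Atf3, Atf4, Psat1, Phgdh, Shmt2 and Sesn2. They were taken by symbol from the annotation of the array, and all 10 were found among the 17097 genes with a probe set of their own. Together they have 15 probe sets, of which the brightest on average stood for each gene, and all 10 genes passed the filter on low signal. Values are log2 RMA intensities, on which a difference of 1 is a 2-fold change in signal.

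The samples were whole bladders of female C57BL/6J mice. In the tumour groups, poly-L-lysine and then MB49 cells, a mouse bladder carcinoma line, had been put into the bladder on day 0, and bladders were taken on day 12. Treated tumour mice had received alpha1-oleate, in which a peptide is bound to oleate, into the bladder at 1.7, 8.5 or 17 mM, 5 times from day 3 to day 11, and sham-treated tumour mice had received PBS. Tumour-free mice had received PBS, or 17 mM alpha1-oleate with a sacrifice time of 24 h or 7 d. No ages are stated in the labels. The doses were run in experiment 1 (5 arrays) and the 24 h and 7 d samples in experiment 2 (4 arrays), each with a healthy PBS and a tumour PBS array of its own. The healthy PBS and tumour PBS groups had 2 arrays each, 1 per experiment, and every other group had 1. The model is 1 cell line placed in the bladder, and each array is a mixture of tumour, urothelium, muscle, stroma and leukocytes, so fewer cells of a type and less RNA per cell cannot be told apart.

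In the integrated stress response, kinases that sense amino acid shortage, unfolded protein, viral RNA or haem deficiency phosphorylate the translation factor eIF2. General translation then slows while the transcription factor ATF4 is translated more, so the response acts on ATF4 protein before it shows in transcripts. ATF4 and its partners switch on genes for amino acid synthesis, transport and tRNA charging, and, when stress persists, the CHOP branch with Ddit3, Trib3 and Chac1. The serine pathway, made of Phgdh, Psat1 and Psph, draws on glycolysis and feeds one-carbon metabolism through Shmt2, and it is active in many dividing cells.

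ATF4 is known to bind composite C/EBP-ATF elements in target genes. The core of that element, TGATGNAA on either strand, was looked for in the RefSeq promoters (GRCm38.p6, 300 bases, of which 250 lie before the gene start). Promoters were found for all 10 genes, and 4 of them held the core: Trib3, Asns, Chac1 and Atf3. The same core was in 3.97% of all 32851 promoter windows listed. The cAMP response element, TGACGTCA, was in 0 of the 10 genes and in 1.79% of all windows, and no stretch can match both motifs. The stretches around the 4 matches are shown because they hold the letters that ATF4 and its partners are known to bind. Capitals mark the core as read on the gene's strand, and TTNCATCA is the core on the opposite strand.
Trib3, chr2:152344039-152344072, minus strand: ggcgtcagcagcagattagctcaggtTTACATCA
Asns, chr6:7693210-7693258, minus strand: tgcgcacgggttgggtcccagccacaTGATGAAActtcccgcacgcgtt
Chac1, chr2:119351023-119351082, plus strand: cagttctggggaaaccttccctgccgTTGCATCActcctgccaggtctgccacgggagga
Atf3, chr1:191183410-191183469, minus strand: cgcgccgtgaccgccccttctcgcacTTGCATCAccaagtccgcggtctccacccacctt
The Asns core began at position -23 from the gene start, the Chac1 core at -193 and the Atf3 core at -110, while the Trib3 core began at 14, inside the transcribed part. A match is a run of letters and says nothing of binding in these bladders.

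The experiments had been normalized apart, so values were compared within an experiment. Urothelial transcripts were plentiful on the healthy PBS arrays, where Upk2, a urothelial plaque protein, read 11.22 and 10.86. The array labelled healthy, 17 mM, 24 h stood apart from its label. On it all 5 measured proliferation markers lay at least 1 log2 above healthy PBS of its experiment (Mki67 6.83 against 3.41), with a summed linear signal of 715 against 60 in healthy PBS and 2912 in tumour PBS. On the 7 d array 0 of these 5 did, with a summed signal of 85. Values of the 24 h array, centred on the PBS arrays, correlated across genes at 0.87 with the tumour array at 17 mM, against 0.34 for the 7 d array. The label is kept as its name, and the differences of treated from sham-treated tumours do not use it. Hepatocyte markers also lay 1 log2 or more above healthy PBS on it (5 of 7, summed signal 1221 against 547), as on the tumour arrays at 8.5 mM (4 of 7, 949) and 17 mM (6 of 7, 2118) against 601 in healthy PBS of experiment 1. Ttr alone of the 7, the brightest in healthy PBS (8.91 and 8.78), went the other way, at 7.56, 8.16 and 8.29 on the 8.5 mM, 17 mM and 24 h arrays. Alb read 8.80 on the 24 h array against 3.85 in healthy PBS.

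Sham-treated tumours carried more transcript of 9 of the 10 genes than tumour-free bladders, most of all the serine enzymes Psat1 and Phgdh and the pseudokinase Trib3. Psat1, which makes phosphoserine, read 6.17 and 5.81 in the healthy PBS bladders of experiments 1 and 2, and 9.59 and 9.34 in the tumours. The tumour read higher within each experiment, and Psat1 rose by 3.48 (SE 0.09, 2 arrays against 2, limma adjusted p = 0.0024). Phgdh, the enzyme that opens the serine pathway, read 6.53 and 6.53 in healthy bladders and 9.60 and 9.30 in tumours, and rose by 2.92 (SE 0.12, limma adjusted p = 0.0024). A second Phgdh probe set, not used in the fit, read lower in healthy bladders (5.15 and 4.05) and differed by 4.81 and 4.94. Shmt2, the mitochondrial enzyme that splits serine into glycine and a one-carbon unit, was 0.84 higher in the tumour of experiment 1 and 1.04 higher in experiment 2, a smaller rise (0.94, SE 0.10, limma adjusted p = 0.00765).

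Among the stress response targets, Trib3, a pseudokinase induced by ATF4 and CHOP, read 4.64 and 4.47 in healthy bladders against 7.27 and 7.26 in tumours. That is a rise of 2.71 (SE 0.10, limma adjusted p = 0.0024), or 6.54-fold, nearly alike in both experiments. Asns, asparagine synthetase, read 8.40 and 7.43 in healthy bladders and 10.21 and 9.79 in tumours, a rise of 2.08 (SE 0.18, limma adjusted p = 0.00481). Within each experiment the tumour array exceeded the healthy array for both genes.
Ddit3, which encodes the death-promoting factor CHOP, read 6.82 and 6.21 in healthy bladders and 7.77 and 7.73 in tumours, a rise of 1.24 (SE 0.18, limma adjusted p = 0.0136). Chac1, an enzyme that degrades glutathione, read 5.84 and 5.41 against 6.81 and 6.25, a rise of 0.90 (SE 0.09, limma adjusted p = 0.00694). Within each experiment the Ddit3 difference was the more variable of the pair, at 0.95 and 1.52, against 0.97 and 0.84 for Chac1.

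Among the transcription factors, Atf4, the central factor, read 9.50 and 9.17 in healthy bladders and 10.33 and 10.23 in tumours, a rise of 0.94 (SE 0.11, limma adjusted p = 0.00824). Atf3, a stress-induced repressor, rose by 0.43 (SE 0.09, limma adjusted p = 0.0307). Its levels, 6.14 and 5.02 in healthy bladders and 6.62 and 5.40 in tumours, overlapped between the groups unless compared within an experiment. Sesn2, a leucine sensor that restrains mTORC1, read 6.70 and 5.57 in healthy bladders and 6.55 and 5.68 in tumours, a fitted difference of -0.02 (SE 0.11, limma adjusted p = 0.893). Its 2 probe sets disagreed in experiment 2, where the other one differed by 1.41, from 4.93 to 6.34.

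**Figure D1:**
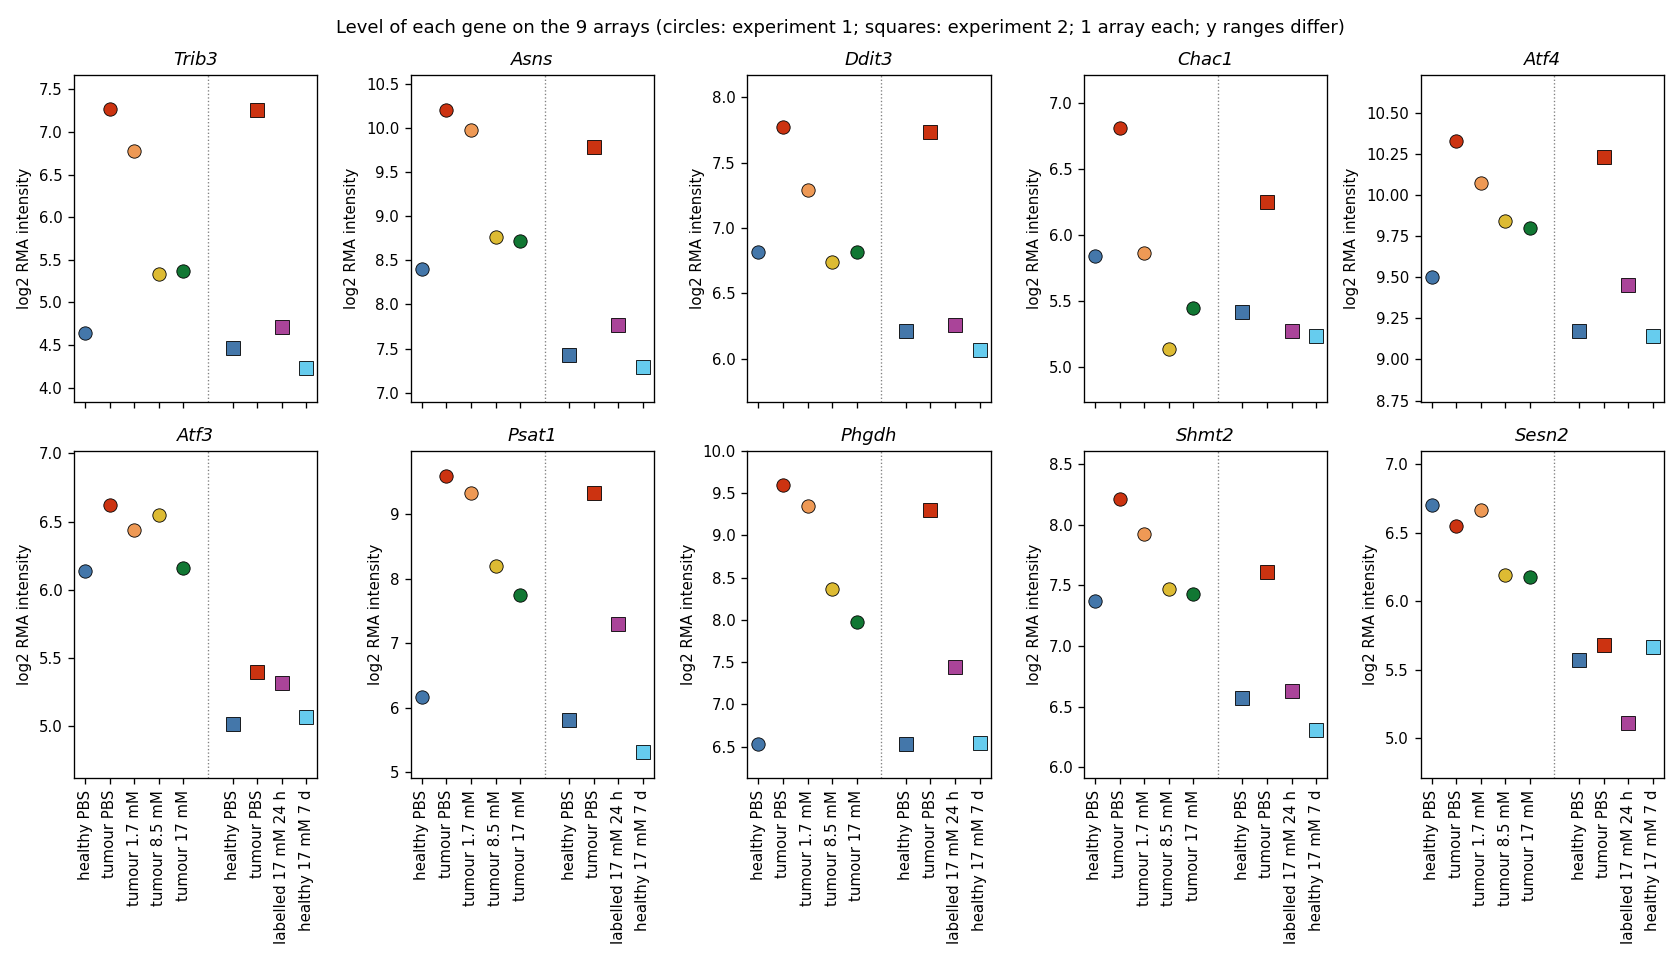
Level (log2 RMA intensity) of each of the 10 genes on each of the 9 arrays, 1 point an array, with experiment 1 as circles and experiment 2 as squares. Sham-treated tumours lie highest within each experiment for every gene except Sesn2, and the arrays at 8.5 and 17 mM lie within 0.37 of healthy PBS for Asns, Ddit3 and Shmt2, 0.69 and 0.73 above it for Trib3, 0.71 and 0.40 below it for Chac1, and 1.44 to 2.03 above it for Psat1 and Phgdh.

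In all, 9 of the 10 genes rose in the tumours, where 28.6% of the 11969 genes tested rose and 28.6% fell, and the median difference was 1.09 over the 10 genes and 0 over all genes. The spread behind these p-values is how far the tumour difference disagreed between the experiments, which limma draws toward that of the other genes. It comes from the 4 PBS arrays alone, and no label says if these came from separate animals. Without the experiment in the fit 5 genes passed, with Chac1 (limma adjusted p = 0.125), Atf3 (0.581), Atf4 (0.104) and Shmt2 (0.107) no longer called. That fit gave all genes the same spread, which holds the shift between the experiments, so its calls follow the size of the difference alone. Beside these genes, the 5 proliferation markers were 5.92 and 5.78 higher in the tumours of experiments 1 and 2 by their median, and 7 of 8 leukocyte markers lay at least 1 log2 higher in both. Their part in the result was not tested.

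On the array of tumour treated with 17 mM alpha1-oleate, all 10 genes read below tumour PBS of its experiment. In the fit, 6 of the 10 were called lower than in sham-treated tumours: Trib3, Psat1, Asns, Phgdh, Chac1 and Shmt2. The fit also draws on the PBS arrays of experiment 2 through the experiment term, and the dose arrays are assumed to vary like the PBS arrays. The 17 mM array read 5.37 for Trib3, between healthy PBS (4.64) and tumour PBS (7.27) of its experiment, and Trib3 fell by 1.94 (SE 0.13, 1 array against 2, limma adjusted p = 0.0159). Psat1 read 7.75 and fell by 1.87 (SE 0.12, limma adjusted p = 0.0159). For Asns the array read 8.72, a decrease (-1.63, SE 0.23, limma adjusted p = 0.0299) that left it 0.32 above healthy PBS. For all 3 genes the 17 mM array lay below tumour PBS of its experiment, which read 9.59 for Psat1 and 10.21 for Asns.
Phgdh read 7.97 at 17 mM and fell by 1.56 (SE 0.16, limma adjusted p = 0.0202). Chac1 read 5.44, below healthy PBS of its experiment (5.84), and fell by 1.34 (SE 0.12, limma adjusted p = 0.0189). Shmt2 read 7.43, next to 7.37 in healthy PBS, and fell by 0.83 (SE 0.14, limma adjusted p = 0.0368). The other genes did not pass at this dose. Ddit3 read 6.82, the same value as healthy PBS, with a fitted difference of -1.09 (SE 0.24, limma adjusted p = 0.0575), and it passed in 4 of the alternative fits. Atf4 read 9.80 with a difference of -0.59 (limma adjusted p = 0.0691), Atf3 -0.44 (0.0878) and Sesn2 -0.44 (0.126).

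Over all genes 10.6% fell and 15.7% rose at 17 mM, so 6 of 10 called lower and 0 called higher stands against 10.6% and 15.7%. The median difference was -1.21 over the 10 genes and -0.04 over all genes. Without the experiment in the fit 2 of the 10 passed, Psat1 and Trib3, and with all arrays quantile-normalized together 9 passed, Sesn2 being the exception. Of all genes called at 17 mM 59.6% were higher, and 48.9% when the arrays were quantile-normalized together. The same tumour PBS arrays serve this comparison and the one with healthy bladder, so the high tumour level enters both.

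At 8.5 mM the array read much like that at 17 mM, with all 10 genes below tumour PBS of its experiment. In the fit, 5 genes were called lower than in sham-treated tumours. Trib3 read 5.33 and fell by 1.98 (SE 0.13, limma adjusted p = 0.0253), and Chac1 read 5.13, the lowest of the 9 arrays, and fell by 1.65 (SE 0.12, limma adjusted p = 0.0253). Asns (8.77) fell by 1.58, Psat1 (8.20) fell by 1.42 and Phgdh (8.37) fell by 1.16, with limma adjusted p of 0.0416, 0.0262 and 0.0381. For Ddit3 the array read 6.74 (difference -1.17, limma adjusted p = 0.066) and for Shmt2 7.47 (-0.79, 0.0517). Atf4 read 9.84 (-0.55, 0.0961), Sesn2 6.19 (-0.42, 0.153) and Atf3 6.55 (-0.04, 0.82). Over all genes 4.65% fell and 11.0% rose at this dose, against 5 and 0 of the 10. Without the experiment in the fit 1 of the 10, Trib3, passed, and without the filter on low signal Asns did not (limma adjusted p = 0.0542). Shmt2 passed in 3 alternative fits (limma adjusted p from 0.0233 to 0.0421), and Ddit3 with joint quantile normalization (0.0237). Of the genes called at 8.5 mM 70.2% were higher, and 55.7% after joint quantile normalization.

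At 1.7 mM 0 of the 10 genes passed, as did 0% of all genes by limma (1595 at unadjusted p under 0.05, and 2 of the 10, Trib3 and Chac1). On that array 9 of the 10 read below tumour PBS of the experiment. Chac1 read 5.86, next to healthy PBS (5.84), with a fitted difference of -0.92 (SE 0.12, limma adjusted p = 0.251). For Ddit3 the array read 7.29 (-0.62, 0.421), and for Trib3 6.78 (-0.53, 0.315). Psat1 read 9.34 (-0.28, 0.463) and Phgdh 9.35 (-0.18, 0.699). Within experiment 1, Psat1, Phgdh, Asns and Atf3 lay 0.25, 0.25, 0.23 and 0.18 below tumour PBS, and Shmt2 lay 0.29 below it. From 1.7 to 8.5 mM 9 of the 10 genes read lower, by 1.45 for Trib3 and 1.21 for Asns, the exception being Atf3. From 8.5 to 17 mM the differences lay between -0.45 (Psat1) and 0.31 (Chac1), 7 lower and 3 higher, with 1 array a dose and no test. Genes at least 2-fold higher in both tumours also lost signal with dose. Their median share of the tumour excess, defined below, was 82.0%, 41.7% and 29.4% at 1.7, 8.5 and 17 mM.

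**Figure D2:**
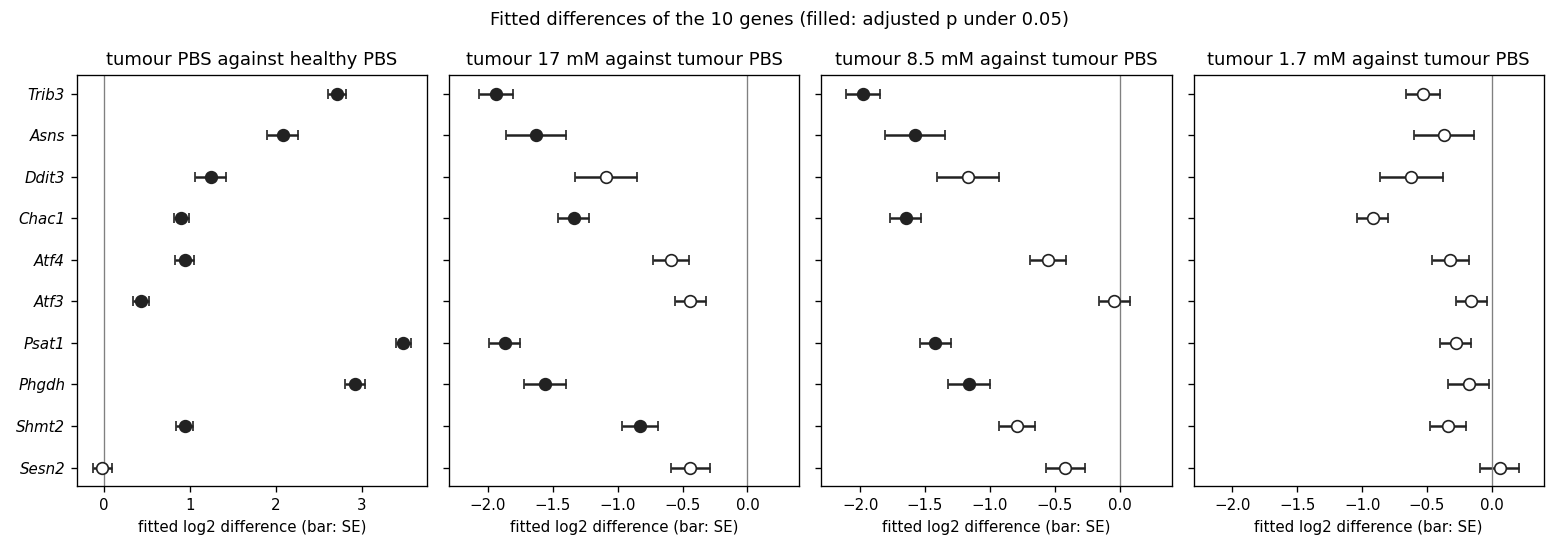
Fitted log2 difference (x axis, bar: SE) of the 10 genes in tumour PBS against healthy PBS and in tumours at 17, 8.5 and 1.7 mM against tumour PBS, filled where the adjusted p is under 0.05. The count of filled points is 9, 6, 5 and 0 from left to right, and the 3 dose panels share an x range that the first does not.

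Of the 10 genes, the serine enzymes Psat1 and Phgdh lay farthest above healthy bladder in the tumour treated with 17 mM. Psph, the other serine enzyme and not 1 of the 10, had a fitted difference of 0.2. The Phgdh probe set not used in the fit read 7.92 at 17 mM against 5.15 in healthy PBS of experiment 1. Against healthy PBS, the 17 mM tumour array was higher by 1.61 for Psat1 (SE 0.12, 1 array against 2, limma adjusted p = 0.0418) and by 1.36 for Phgdh (SE 0.16, limma adjusted p = 0.0584). For Trib3 the difference was 0.77 (SE 0.13, limma adjusted p = 0.0767), for Asns 0.46 (0.285), for Atf4 0.36 (0.209), for Ddit3 0.14 (0.72), for Shmt2 0.11 (0.626) and for Atf3 0 (0.981). Chac1 and Sesn2 lay below healthy, at -0.43 (0.137) and -0.46 (0.161). Thus 1 of the 10 rose and 0 fell, against 2.61% and 0.368% of all genes. Phgdh passed as well in 4 alternative fits. Of all genes called here 87.6% were higher, and 53.7% after joint quantile normalization.

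A share of linear signal makes genes with different rises comparable: the signal above healthy PBS, as a percentage of that in tumour PBS of the same experiment. It was taken for the 8 genes whose tumour excess was at least 0.5 log2. Beside them it was taken for the 1462 genes at least 2-fold higher in both tumours, whose choice uses the same arrays. Atf4, Shmt2, Ddit3 and Chac1 did not reach 2-fold in experiment 1 (0.83, 0.84, 0.95 and 0.97) and so lay outside the 1462. A share of so small an excess moves more with the noise of an array. At 17 mM the median of the 1462 genes was 29.4% (quartiles 21.3% and 40.2%) and the proliferation markers lay between 29.3% (Birc5) and 32.1% (Mki67). Atf4 kept 29.7%, Phgdh 23.2% (21.5% by its other probe set) and Psat1 20.5%. Trib3 kept 12.7%, Asns 9.91%, Shmt2 5.38% and Ddit3 0%, and Chac1 read -25.3%, below healthy. At 8.5 mM the order was alike: Phgdh 34.9%, Atf4 34.2% and Psat1 31.8%, then Trib3 11.8%, Asns 11.7%, Shmt2 9.08%, Ddit3 -5.79% and Chac1 -40.5%, beside a median of 41.7% (quartiles 31.2% and 55.9%).
At 1.7 mM Psat1 and Phgdh kept 82.4% and 81.9%, and Asns 79.4%, near the median of 82.0% (quartiles 69.6% and 96.3%). Trib3 kept 65.7%, Atf4 62.3%, Shmt2 58.7%, Ddit3 41.3% and Chac1 1.46%, all under the lower quartile, and Psph, the other serine enzyme, kept 64.0%. Thus Trib3, Asns, Shmt2, Ddit3 and Chac1 lay under the lower quartile on both arrays of the higher doses, while Phgdh, Atf4 and the proliferation markers lay within the quartiles. Psat1 lay within them at 8.5 mM and just under the lower one at 17 mM. These shares rest on 1 array each and were not tested.

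**Figure D3:**
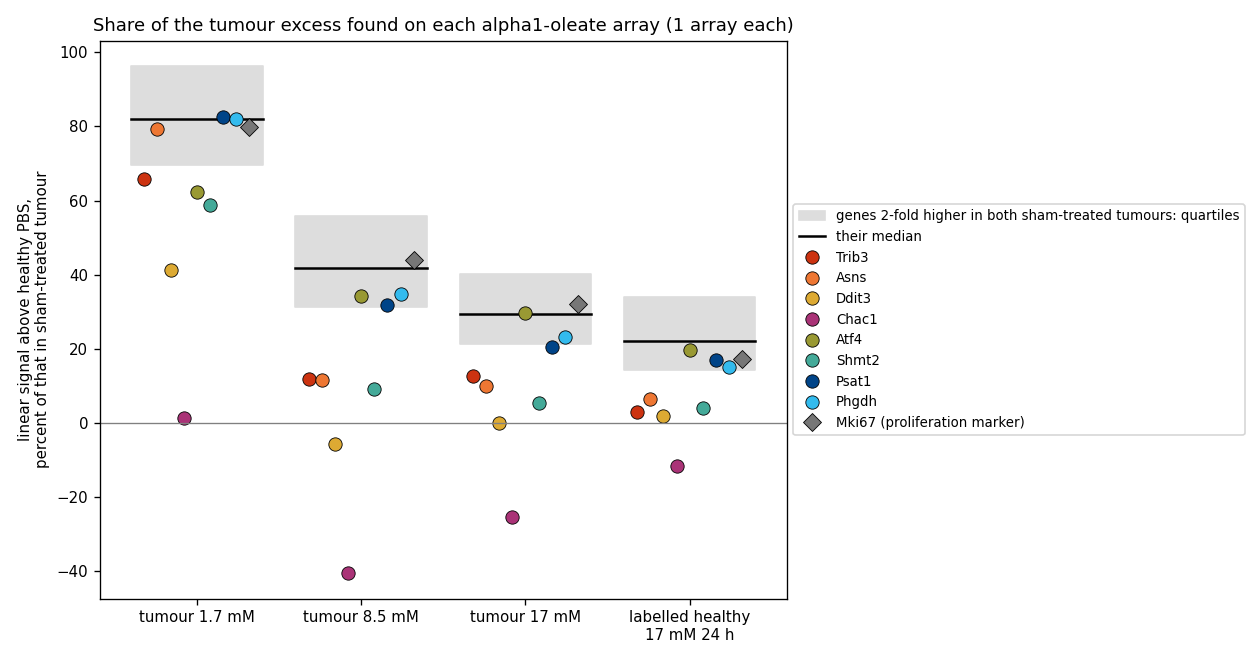
Linear signal above healthy PBS as a percentage of that in sham-treated tumour (y axis) on the 4 alpha1-oleate arrays with raised proliferation markers, 1 point a gene; the grey box and line are the quartiles and median of the 1462 genes 2-fold higher in both tumours. Chac1, Ddit3, Shmt2, Asns and Trib3 lie under the box at 8.5 and 17 mM and on the array labelled 24 h, whereas Atf4, Phgdh and Mki67 lie in it.

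Cell markers moved with these differences. The summed linear signal of the 5 proliferation markers was 4956 in tumour PBS and 85 in healthy PBS of experiment 1. It was 4958 at 1.7 mM, 2171 at 8.5 mM and 1582 at 17 mM. At 1.7 mM Rrm2 alone of the 5 read above tumour PBS (10.65 against 9.84). Mki67, Top2a, Birc5 and Cdk1 kept 79.8%, 79.8%, 86.3% and 87.4% of their tumour excess there. The summed signal of the 6 urothelial markers was, in tumour PBS and at the rising doses, 1540, 2718, 8808 and 10159, against 16929 in healthy PBS. That of the 6 smooth muscle markers was 9776, 12498, 24713 and 29394, against 18660. The 5 fibroblast markers summed to 2399, 4991, 9776 and 9942, against 5085. Leukocyte markers summed to 4925, 2856, 2578 and 2160, against 427. By their median, however, they lay 2.80, 2.84, 2.81 and 2.44 log2 above healthy PBS. The neutrophil genes S100a8 and S100a9 read 10.14 and 10.54 in tumour PBS and 8.17 and 8.53 at 1.7 mM. Adgre1 and Csf1r read 8.27 and 8.44 in tumour PBS and 8.37 and 8.78 at 1.7 mM. The part of these markers in the decreases of the stress genes was not tested.

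On the array labelled healthy, 17 mM, 24 h Phgdh and Psat1 read 0.91 and 1.49 log2 above healthy PBS. The other Phgdh probe set stood farther apart there, at 6.45 against 4.05 in healthy PBS. Sesn2 read below it (-0.46), and Trib3, Asns, Ddit3 and Chac1 read within 0.34 of it. Psat1 read 7.30 against 5.81 in healthy PBS and 9.34 in tumour PBS of experiment 2, a fitted difference from healthy of 1.46 (SE 0.12, 1 array against 2, limma adjusted p = 0.071). Phgdh read 7.44 against 6.53 and 9.30 (0.98, SE 0.16, limma adjusted p = 0.136). Trib3 read 4.71 against 4.47 and 7.26 (0.20, 0.442), Asns 7.77 against 7.43 and 9.79 (0.20, 0.649), and Ddit3 6.26 against 6.21 and 7.73 (-0.09, 0.847).
By share of tumour signal above healthy, Atf4 was at 19.7%, Psat1 at 17.1%, Mki67 at 17.2% and Phgdh at 15.1%, beside a median of 22.0% over the 1462 genes (quartiles 14.3% and 33.9%). Asns was at 6.43%, Shmt2 at 4.02%, Trib3 at 3.06%, Ddit3 at 1.89% and Chac1 at -11.7%. The order of the genes was thus like that of the tumour arrays at 8.5 and 17 mM. In the fit 0 of the 10 genes passed, as did 0% of all genes (2503 at unadjusted p under 0.05, and 3 of the 10). Psat1 passed with a variance trend or joint normalization, and Phgdh with joint normalization or the mean of its probe sets.

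At 7 d after 17 mM the tumour-free bladder read close to healthy PBS. The differences from healthy PBS of experiment 2 ran from -0.50 (Psat1, 5.31 against 5.81) to 0.10 (Sesn2), 7 below and 3 above. Phgdh read 6.54 against 6.53 and Trib3 4.23 against 4.47. By limma 0 of the 10 genes passed, as did 0% of all genes (1096 at unadjusted p under 0.05, and 1 of the 10, Psat1, with a fitted difference of -0.53, SE 0.12, adjusted p = 0.52). Proliferation markers were 0.46 above healthy PBS by their median on this array.

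Of 59 further genes of the pathway, 50 were measured and 45 lay above the filter. In tumours 27 of the 45 rose and 8 fell (28.6% each over all genes), and at 17 mM 2 rose and 18 fell (15.7% and 10.6%). At 8.5 mM 1 rose and 10 fell (11.0% and 4.65%), and at 1.7 mM, at 24 h and at 7 d 0 passed. The lists were chosen with results of these data known, so their counts are descriptions.

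The tRNA synthetases, with the tRNA exporter Xpot, showed the most uniform counts of the 6 lists. All 11 measured genes rose in tumours (28.6% of all genes), by 0.98 at the median, and 8 of 11 were called lower at 17 mM (10.6% of all genes, median of the list -0.74). Gars, which charges glycine tRNA, rose by 1.60 in tumours (SE 0.12) and fell by 1.03 at 17 mM. Eprs, which charges glutamate and proline tRNAs, fell by 0.91 at 17 mM (SE 0.12, limma adjusted p = 0.0265) and fell by 0.80 at 8.5 mM (0.042).

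Of 6 amino acid transporters 4 rose and 2 fell in tumours (28.6% each over all genes), and 4 fell at 17 mM (10.6%). Slc7a5, the large neutral amino acid carrier, read 5.83 and 5.74 in healthy bladders and 9.69 and 9.70 in tumours, a rise of 3.91 (SE 0.09, limma adjusted p = 0.0024). It read 7.99 at 17 mM and fell by 1.72 (limma adjusted p = 0.0159), yet remained 2.18 above healthy PBS (0.0365). Slc3a2, its heavy chain, rose by 1.28 in tumours and fell by 0.86 at 17 mM. The cationic carrier Slc7a1 rose by 1.72 and fell by 1.30. Against the rest, the glycine carrier Slc6a9 fell by 1.48 in tumours (SE 0.14, limma adjusted p = 0.00573) and Slc38a2 fell by 0.48 (0.0251).

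Of the other enzymes of serine, glycine and folate metabolism, 3 of 7 rose and 2 fell in tumours, counts near the 28.6% of all genes in each direction. Psph, which completes serine synthesis, read 6.63 and 5.55 in healthy bladders and 8.76 and 8.29 in tumours, a rise of 2.44 (SE 0.19, limma adjusted p = 0.00432). At 17 mM it read 6.68 and fell by 2.23 (SE 0.25, limma adjusted p = 0.0219), leaving 1.04% of the tumour excess, against 23.2% for Phgdh and 20.5% for Psat1 in the same pathway. The mitochondrial folate enzymes Aldh1l2 and Mthfd1l rose by 2.47 and 2.39 in tumours. At 17 mM Aldh1l2 fell by 2.09 and Mthfd1l fell by 1.66, and they kept 4.94% and 15.2%. These shares, like that of Psph, lay under the lower quartile of the 1462 genes (21.3%), but not all further pathway genes did. Of those at least 2-fold higher in both tumours, Slc7a1, Aars and Eprs also lay under it. Eif2ak2, Jdp2, Slc7a5, Slc3a2, Gars, Iars and Mars1 lay within the quartiles (21.3% and 40.2%), and Nupr1 lay above them (73.3%).
Gldc, the glycine-cleaving decarboxylase, went the other way: it read 8.64 and 8.02 in healthy bladders and 5.37 and 4.80 in tumours, fell by 3.24 (SE 0.09, limma adjusted p = 0.0024), and rose by 1.92 at 17 mM (limma adjusted p = 0.0159). Cth, which makes cysteine, fell by 0.98 in tumours (limma adjusted p = 0.0105).

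Of the eIF2 kinases and factors upstream, 3 of 9 rose and 0 fell in tumours (28.6% each over all genes), and 0 were called at any dose. Those up were Eif2ak2, the kinase that senses double-stranded RNA and is also an interferon target (1.44, SE 0.19, limma adjusted p = 0.0113), and the phosphatase subunits Ppp1r15a (1.20, 0.0104) and Ppp1r15b (0.72, 0.0092), which reverse eIF2 phosphorylation. At 17 mM Ppp1r15a differed by -0.84 (0.0686) and Eif2ak2 by -0.82 (0.106). Of the 5 other transcription factors 4 rose in tumours, led by Jdp2, an AP-1 family repressor (2.95, SE 0.10, limma adjusted p = 0.0024), and Nupr1, a stress-induced chromatin protein (1.55, 0.00446). At 17 mM Jdp2 fell by 1.32 (0.0205), Cebpg, an ATF4 partner, fell by 0.64 (0.0419) and Cebpb fell by 0.62 (0.0448).

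Of the remaining ATF4 targets, 2 of 7 rose and 4 fell in tumours, where 28.6% of all genes rose and 28.6% fell. Those that rose were the mTORC1 inhibitor Ddit4 (1.06, SE 0.17, limma adjusted p = 0.0162) and the translation repressor Eif4ebp1 (0.68, 0.0113). Among those that fell were the lipoprotein receptor Vldlr (-2.93, SE 0.37, 0.0101) and the alanine aminotransferase Gpt2 (-1.29, 0.00413). Bcat1, a branched-chain aminotransferase, fell by 0.91 (0.0226). At 17 mM 1 of 7, Gpt2, rose (0.87, 0.0314). Ddit4 read 10.97 at 1.7 mM, above tumour PBS (9.47) and the other doses (8.62 and 8.65), with a fitted difference of 1.37 (SE 0.22, limma adjusted p = 0.258).

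**Figure D4:**
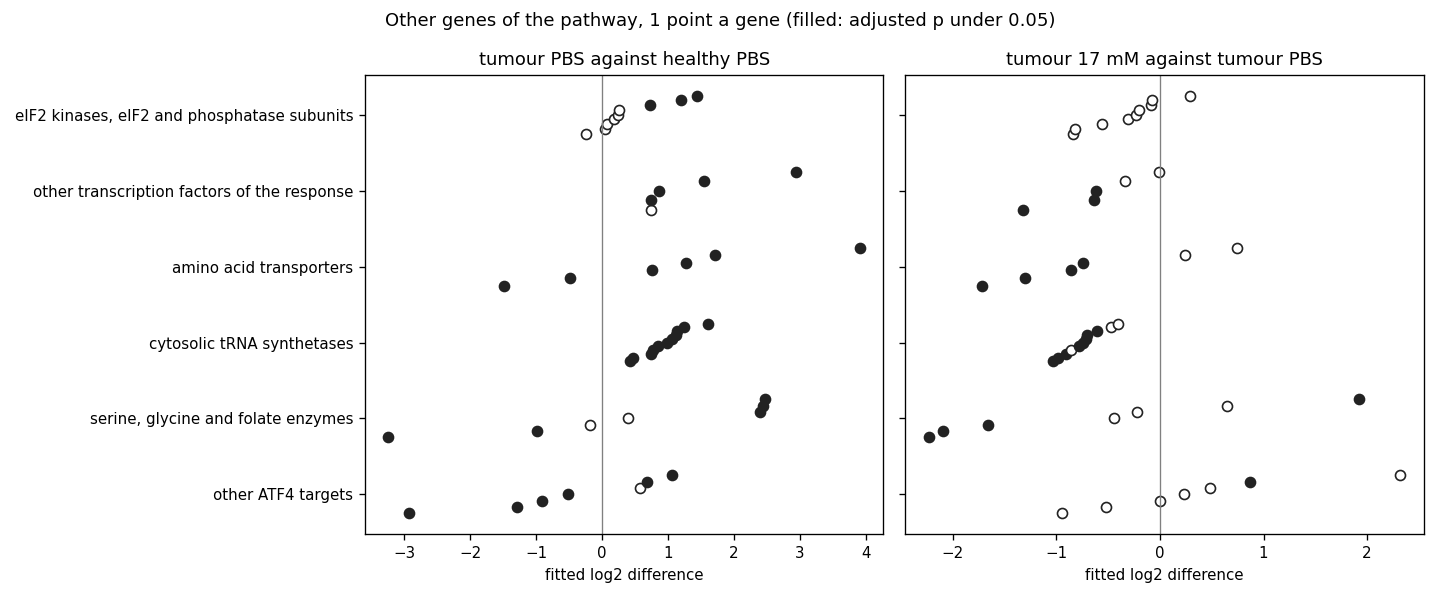
Fitted log2 difference (x axis) of 45 further pathway genes by list, 1 point a gene, filled where the adjusted p is under 0.05, in tumour PBS against healthy PBS and in tumours at 17 mM against tumour PBS. All 11 points of the tRNA synthetase list lie above 0 in tumours and below 0 at 17 mM, and Gldc is the far left point of the serine list in the first panel.

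The genes nearest to Trib3 over the 9 arrays, by Pearson correlation of values centred on the 2 PBS arrays of each experiment, were Eprs (0.997), Slc27a1 (0.997), Eif4ebp1 (0.995), Gstcd (0.995) and Csprs (0.995). Of the members, Asns was as close (0.995), followed by Shmt2 (0.982), Atf4 (0.976), Ddit3 (0.958), Phgdh (0.956) and Psat1 (0.944). Atf3 (0.71), Chac1 (0.69) and Sesn2 (0.247) were less alike. Nearest to Phgdh were Rapgef1 (0.999), Kntc1 (0.998), Sh3bp2 (0.998), Limk1 (0.998) and Tmem39a (0.998). Mki67 correlated at 0.962 with Phgdh and at 0.856 with Trib3. The arrays share controls and experiments, so these values are descriptions.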

How the data were processed

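The values analysed are log2 RMA intensities of an Affymetrix mouse array, 45077 probe sets on 9 arrays, as deposited by the authors. Per the submitters' processing notes the tools were RMA and Transcriptome Analysis Console 4.0.1.36. RNA came, per the labels, from pulverised frozen bladder (RNeasy columns) and 100 ng was labelled with a GeneChip 3' IVT kit. A genome build is not given in the sources used here. Precision is limited by the number of arrays.

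The experiments were normalized apart: sorted values deviated by 0.022 log2 within an experiment and by 0.329 between them. The experiment number in the labels was therefore used as a block, and same-numbered deviations of the PBS groups correlated at 0.647.

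Of the probe sets 28898 named 1 gene, 551 several and 15588 none, 40 controls were left out, and 28689 matched an Entrez number. For each gene the probe set with the highest mean was used, and genes in the lowest 30% of mean level (below 4.16) were left out, which kept 11969. Limma (lmFit, eBayes, 7 group means plus block, 1 residual and 2.23 prior degrees of freedom) gave p-values adjusted by Benjamini-Hochberg over all genes tested, with calls under 0.05. Groups with 1 array are assumed to vary like the replicated ones and add nothing to the spread. The fit was tested on simulated data.

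The members and lists were chosen with earlier results of these data known. All members are named. Of each further list, up to 3 called genes in each direction, or 2 uncalled ones, are named in the order of size, not all of them printed. Cell markers were proliferation, urothelium, smooth muscle, leukocyte, fibroblast, endothelium and hepatocyte lists. Fibroblast markers at least 1 log2 above healthy were 2 of 5 at both 8.5 and 17 mM, and endothelial ones 2 of 4 on each treated tumour array. Of the pathway lists 9 genes had no probe set of their own and were not analysed here. Alternatives were no block, joint quantile normalization, other filters, a variance trend, averaged probe sets and leaving out single arrays. Software was R 4.3.3 (limma 3.58.1) and Python 3.11.15 (matplotlib 3.10.9, pandas 2.3.3, numpy 2.4.6).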

Additional observations from a re-analysis of the deposited data

Results flagged for a closer look

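Sesn2 went opposite ways in the tumours of the 2 experiments. It was lower than in healthy bladder in experiment 1 (-0.15 log2) and higher in experiment 2 (0.11). The difference between the experiments was not tested.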

How the results depend on the processing

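Of 753 alternative values of the 70 member differences, 13 lost the call (12 of them without the experiment in the fit) and 19 gained it. The sign changed in 29 of them, 12 without the experiment in the fit and 17 for Atf3 or Sesn2, and in 0 where the main difference was called. Leaving out the experiment, the block that pairs the PBS arrays (no replicate block), gave 3172 genes called in tumours, 1217 at 17 mM, 945 at 8.5 mM, 36 at 1.7 mM, 590 at 17 mM against healthy PBS, 126 at 24 h and 15 at 7 d, with 5, 2 and 1 members called in the first 3. Quantile normalization of all arrays together gave 3274 genes at 8.5 mM, 2188 at 17 mM against healthy PBS, 782 at 24 h and 28 at 7 d, with 2 members called in the second and 2 in the third. Against healthy PBS at 17 mM, the genes called numbered 202 with no filter, 577 with the lowest 50% left out, 684 with the mean of probe sets and 732 with a variance trend, with 2 members under each of the last 3. At 24 h they numbered 121, 96 and 198 under these last 3, with 1 member for the mean of probe sets and 1 for the trend. The mean of probe sets also moved the median difference of the members to 1.18 in tumours of experiment 2 and to 0.03 at 17 mM against healthy PBS. The cause of these shifts was not tested. Leaving out 1 PBS array leaves no residual degree of freedom and so gives values only. Without the tumour PBS array of experiment 1, Ddit3 at 17 mM read -1.52, Asns -2.04 and Phgdh -1.33. Without the array labelled healthy, 17 mM, 24 h, 9, 6 and 5 members were called in tumours, at 17 mM and at 8.5 mM, as with it.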
